A study of Rattus norvegicus with 12 samples.

Results

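Endothelin-2 (ET-2) was set against no peptide in primary cultures of ganglion cells of the rat retina, the output neurons that send axons down the optic nerve. The comparison set the 3 arrays titled as ET-2-treated against the 3 titled as untreated, 6 of the 12 arrays of the series; the ET-1 and ET-3 arrays entered the fit and its estimate of the spread. The cells came from Sprague-Dawley rat pups of postnatal days 4 to 6 and were isolated by panning on an antibody to Thy-1.1. They grew in DMEM without serum for 7 days, supplied with forskolin and the neurotrophic factors BDNF and CNTF, and then stood overnight with both factors withdrawn. ET-2 was added at 100 nM for 24 h. The controls are named untreated in titles and vehicle-treated in descriptions. The other 6 arrays held the same cultures with 100 nM endothelin-1 (ET-1) or endothelin-3 (ET-3) for 24 h, 3 arrays each. The labels number the arrays of each group as biological replicates 1 to 3 but do not say whether these were separate cultures or litters, so the p-values measure the spread between these arrays.

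The endothelins are short peptides that raise calcium and contract vascular smooth muscle through the G protein-coupled endothelin A and B receptors. ET-1 and ET-2 bind both receptors alike, and ET-3, which differs from them at more residues, prefers the B receptor. In the eye, endothelins constrict retinal vessels, and ET-2 is known to rise in injured retina, where glial cells carry the B receptor.

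Signal is the deposited MAS5 value of a probe set on a linear scale, and changes are differences of log2 signal, ET-2 minus untreated, with no further scaling unless centring is named. Arrays were paired by replicate number: deviations from the group means correlated between the ET-2 and untreated arrays of each number (r from 0.722 to 0.840 across probe sets), and the labels do not say what a number stands for. Values with ± are mean log2 changes with the standard error of the paired limma fit (n = 3 pairs), and a gene was called at an adjusted p under 0.05 (Benjamini-Hochberg over the 15521 probe sets with a mean signal above about 147.5). A gene is read on its brightest tested probe set, which gave 9425 genes.

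Markers of ganglion cells were bright on the 6 arrays, with overlapping sums. The summed signal of 18 ganglion cell markers ran from 99246 to 139283 without peptide and from 103445 to 144427 with ET-2, and none of the 18 was called. Fibroblast transcripts differed between replicate numbers: 18 fibroblast markers summed to 63808 and 65069 in replicate 1 without and with ET-2, to 14323 and 11396 in replicate 2 and to 9141 and 8554 in replicate 3. Summed amacrine cell markers did not overlap (11097 to 11886 without peptide and 10173 to 10743 with ET-2), with none of the 7 tested called. No photoreceptor or bipolar cell marker of 12 reached the signal filter, and 2 of 11 endothelial markers did. Among the 12 pericyte and smooth muscle markers, the defining pericyte genes Rgs5, Kcnj8 and Cspg4 lay below the filter on average, and the sum went from 6564, 7062 and 7283 without peptide to 8901, 9666 and 9561 with ET-2, with no overlap between the groups. In RNA from mixed cells, fewer cells of a type and less RNA per cell cannot be told apart.

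**Figure D1:**
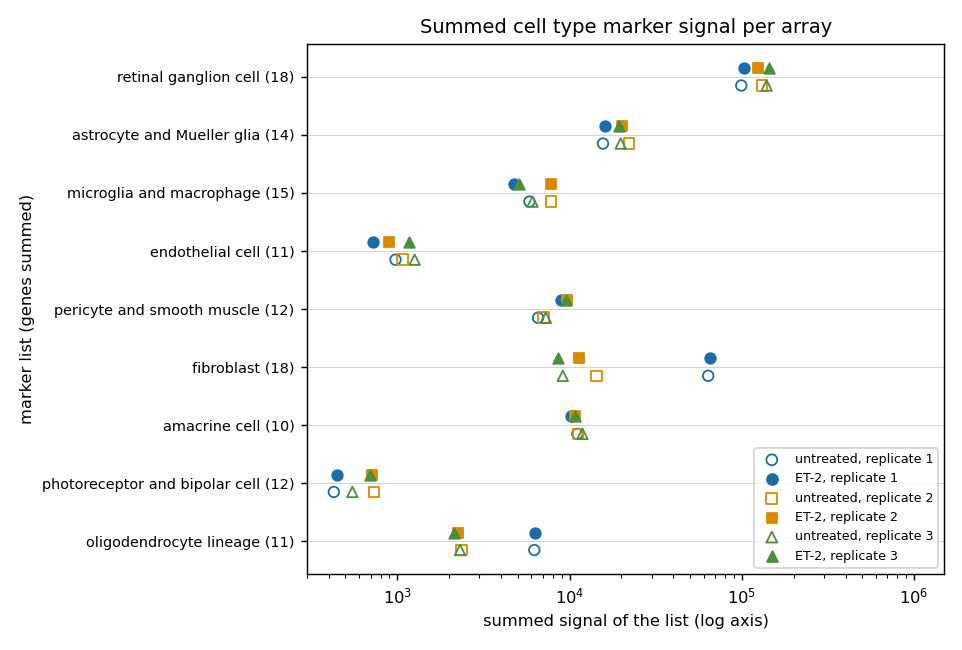
Summed MAS5 signal of 9 cell type marker lists on the 3 untreated (open) and 3 ET-2 (filled) arrays, on a log axis, with the replicate number as colour and shape. Fibroblast markers were highest on both arrays of replicate 1 (63808 and 65069), and pericyte and smooth muscle markers lay higher on every ET-2 array (8901 to 9666) than on every untreated array (6564 to 7283).

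Of the 9425 genes, 140 were higher with ET-2 (1.49% of the genes tested) and 36 were lower (0.382%). Increases were larger: their median was 0.71 on the log2 scale and 32 reached 2-fold, while the decreases had a median of -0.36 and 3 reached 2-fold. Every called gene moved one way under all 3 replicate numbers, as did 14.2% (higher) and 21.8% (lower) of all tested genes, or 14.1% and 21.6% of the probe sets. Levels differed between replicate numbers, and the 3 ET-2 arrays lay wholly above the 3 untreated arrays for 48 of the 140 higher genes (2.32% of all tested genes did so) and wholly below for 14 of the 36 lower genes (3.17%). For probe sets those shares were 2.13% and 2.93%. On probe sets the counts were 199 higher (1.28%) and 50 lower (0.322%). Called genes had 43 other tested probe sets. Of these, 38 had the same sign and 10 were called in the same direction. With the spread estimated from the ET-2 and untreated arrays alone, 50 probe sets were higher and 6 lower, and 55 of the 249 calls were kept. Without the pairing the same fold changes gave 0 calls (223 probe sets at an unadjusted p under 0.05; lowest adjusted p = 0.854), so every call below rests on it. Without the replicate 1 arrays of every group, the replicate rich in fibroblast transcripts, 27 probe sets were higher and 5 lower. The loss of calls was not particular to replicate 1. Of the 249 calls, 27 were kept without replicate 1, 32 without replicate 2 and 96 without replicate 3. All 249 called probe sets kept their direction in each of these fits. For the called genes this was fixed in advance, because each moved one way in all 3 pairs. Of the 140 higher genes, 20 had an untreated mean below the signal filter and were tested only because the peptide arrays raised their mean. Those among them named below are Vgll3, Enpep, Tnfaip2, Ccna2, Mcm3, Tk1, Ehd2, Lmcd1, Sphk1, Tnfrsf11b and Uhrf1.

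The higher genes changed most in replicate 1. The median increase was 0.90 in replicate 1, 0.61 in replicate 2 and 0.51 in replicate 3, and 106 of the 140 genes had their largest change in replicate 1 (75.7%, against 42.7% of all tested genes). Of the 140, 87 also had their highest untreated signal in replicate 1 (62.1%, against 32.7% of all tested genes). The 36 lower genes were more even, with medians of -0.40, -0.34 and -0.34. The part that the makeup of the replicate 1 cultures had in these sizes was not tested.

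Actin and contractile genes held the most called members of all lists. Many of these genes build stress fibres, the actin bundles with which smooth muscle, pericytes, fibroblasts and other adherent cells pull on their surroundings. The list also holds Vim, an intermediate filament gene. Of 28 tested members, 17 were called higher and none lower, against 1.49% and 0.382% of all tested genes. The uncentred counts of the lists below stand against these same shares. The list's median change was 0.49, against -0.02 over all tested genes, and 26 of the 28 were positive. The list's medians in replicates 1, 2 and 3 were 0.72, 0.30 and 0.37.

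Myosins and tropomyosins make and gate the force. Myl12a, a regulatory light chain of non-muscle myosin, read 4605, 3614 and 3099 without peptide and 8465, 6611 and 4245 with ET-2 (replicates 1, 2 and 3 in order, here and below). Its replicate 3 ET-2 array overlapped the untreated range, while each array exceeded its own untreated partner. The change was 0.73 ± 0.08 (1.66-fold, adjusted p = 0.00164). Myl9, the light chain of smooth muscle myosin, changed by 0.63 ± 0.11 and Myh9, a non-muscle myosin heavy chain, by 0.43 ± 0.09. Of the tropomyosins, which lie along the actin filament, Tpm2 (0.64), Tpm4 (0.43) and Tpm1 (0.38) rose. Of 5 other tested Tpm1 probe sets, 4 had positive values (0.22 to 0.54), 1 of which was called (0.54, adjusted p = 0.0316), and the other gave -0.09 (adjusted p = 0.623).

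Smooth muscle genes proper rose by like amounts, Cnn1 and Acta2 from lower signals than Myl12a. Cnn1, smooth muscle calponin, read 234, 438 and 427 without peptide and 380.2, 716 and 642 with ET-2. Replicate 1 was the lowest in both groups, so the groups overlapped, and the change was 0.67 ± 0.10 (adjusted p = 0.0075). Acta2, smooth muscle actin, read 544, 687 and 793 without peptide and 786, 989 and 1005 with ET-2. The lowest ET-2 array lay just under the highest untreated array, and the change was 0.47 ± 0.08 (adjusted p = 0.013). Tagln (transgelin or SM22), an actin-binding protein of smooth muscle, read 2708, 4637 and 5003 without peptide and 5201, 6409 and 6375 with ET-2, with every ET-2 array above every untreated one (0.59 ± 0.11). Actg2, the enteric smooth muscle actin, changed by 0.63 ± 0.10. For these 4 genes replicate 1, which was highest in fibroblast transcripts, was the lowest untreated array.

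Vimentin, filament crosslinkers, other actin-binding proteins and a focal adhesion protein made up the rest. Vim, the intermediate filament vimentin, read 7759, 6711 and 6977 without peptide and 13668, 9692 and 9973 with ET-2. Its groups did not overlap, and the change was 0.62 ± 0.06 (adjusted p = 0.000578). Actn1, which crosslinks actin filaments, read 2662, 2490.3 and 1994 without peptide and 5421, 3594 and 2734 with ET-2, again without overlap (0.67 ± 0.12). The crosslinker Flna rose by 0.62, the actin-binding Cald1, Lima1 and Cnn2 by 0.63, 0.61 and 0.45, and Vcl (vinculin), which ties actin to integrins, by 0.44. These are all 17 called members; those beyond the 6 with the smallest p were named after their values were seen. Among the 11 members not called, Flnc had the largest value (0.69 ± 0.17, adjusted p = 0.0608) and Pdlim7 the lowest (-0.18 ± 0.07).

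**Figure D2:**
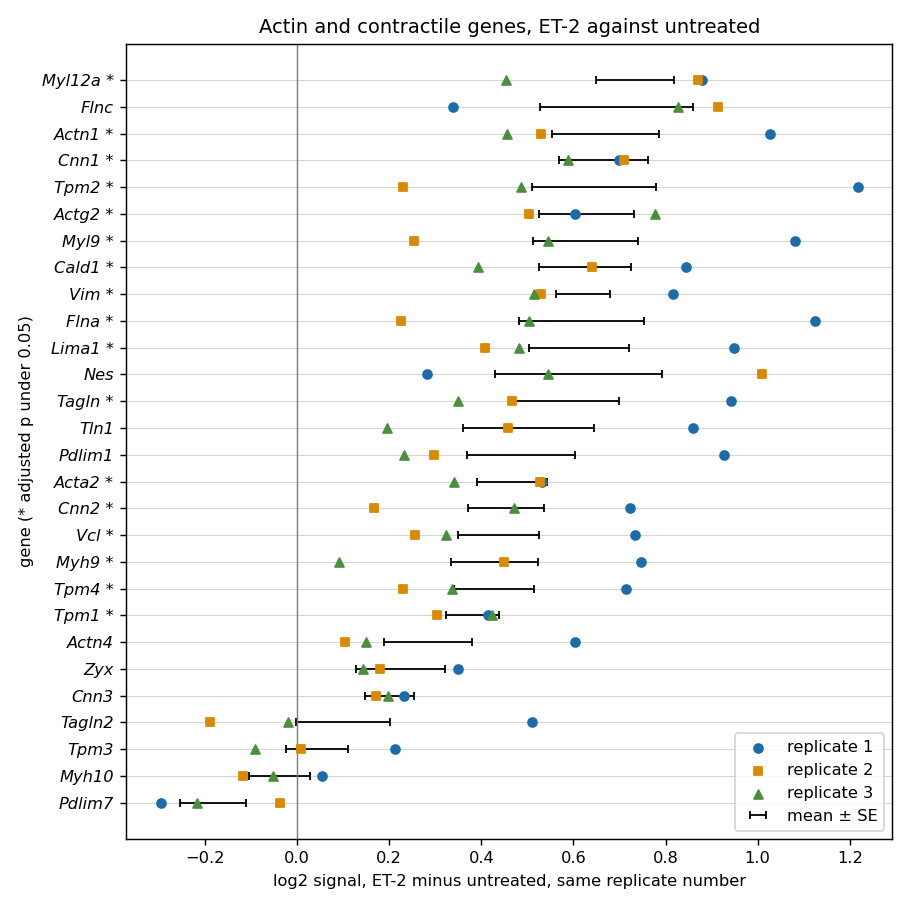
Log2 difference between the ET-2 and the untreated array of the same replicate number for the 28 tested actin and contractile genes (points by replicate), with the mean and standard error of the paired fit (bars); an asterisk marks an adjusted p under 0.05. The 17 called genes lie between 0.38 (Tpm1) and 0.73 (Myl12a), and replicate 1 often gives the largest point.

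The contractile increase stood after each array was centred on its median, which lowers every change by about 0.10: 14 members were then higher, 1 (Pdlim7) was lower, and the list's median was 0.40. Flna, Tpm4, Vcl and Myh9 missed the threshold after centring, and Flnc passed it. Without replicate 1 the median was 0.36 and 2 members were called, Vim and Myl12a, from 2 pairs of arrays. Of these, Vim encodes an intermediate filament and not an actin or myosin protein. The pericyte and smooth muscle marker sum, which was higher on every ET-2 array, shares Acta2, Tagln and Cnn1 with this list. Each of these rose in all 3 pairs, and Tagln was the brightest marker on every array. The other tested markers moved both ways. Pdgfrb, the platelet-derived growth factor receptor of pericytes, read 256, 191 and 91 without peptide and 786, 235 and 207 with ET-2. Its change was 1.03 ± 0.24 (adjusted p = 0.0524) and was called after centring. Myh11 was also higher in all 3 pairs. Anpep fell from 2020 to 988 in replicate 1. Anpep and Abcc9 were lower with ET-2 in replicates 1 and 2 and higher in replicate 3. Notch3 was lower in replicate 1 alone. The part of pericytes or smooth muscle cells in the list's change was not tested.

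Targets of YAP and TEAD gave increases alone. YAP is a coactivator that enters the nucleus when cells spread or build tension and works through the TEAD transcription factors. Of 19 tested members, 6 were higher and none lower, with a median of 0.33 and 16 positive values. The same 6 were called after centring (median 0.24), and 3 without replicate 1, Axl, Myof and Ccn2.

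Ccn2 (connective tissue growth factor), a secreted matricellular protein, read 7141, 11495 and 9244 without peptide and 15821, 17299 and 14675 with ET-2. All 3 ET-2 arrays exceeded all 3 untreated arrays, and the change was 0.80 ± 0.08 (1.74-fold, adjusted p = 0.000744). Its relative Ccn1 (CYR61) read 608, 369.7 and 455 without peptide and 2625, 849 and 734 with ET-2, also without overlap, and changed by 1.33 ± 0.23. Axl, a receptor tyrosine kinase, read 1216, 579 and 699.8 without peptide and 3871, 1293 and 1338 with ET-2 and changed by 1.25 ± 0.13 (adjusted p = 0.00058). Myof (myoferlin), a membrane repair protein, read 401, 323 and 376 without peptide and 831, 802 and 701 with ET-2, with its largest change in replicate 2 (1.09 ± 0.13). The coagulation starter F3 is on this list too and is described with its own group. Tead1 itself, one of the TEAD factors, rose by 0.55 ± 0.08, with its highest signals in replicate 1 (1752, 1109 and 871 without peptide and 2951, 1591 and 1138 with ET-2). Vgll3, a TEAD cofactor that was on none of the lists, was among the 15 largest increases and read 122, 129 and 141 without peptide and 486, 234 and 288 with ET-2 (1.29 ± 0.25); its untreated signals lay below the filter.

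The contractile and YAP lists are both known for short promoter elements, the CArG box bound by serum response factor (by name, on both strands) and the TEAD element GGAATG (both strands). The windows below are shown because they hold such an element within the 250 bases before the start of a gene called higher. Windows of other such genes, Flna and Tpm1 of the contractile list among them, are not shown. They are RefSeq sequence of rat build GRCr8, written 5′ to 3′ on the strand of the gene with 20 bases on each side, and the capitals mark the element or its complement.
Cnn2 (chr7:10370354-10370403, minus strand): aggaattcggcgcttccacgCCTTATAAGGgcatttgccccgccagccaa
Lima1 (chr7:132880523-132880572, minus strand): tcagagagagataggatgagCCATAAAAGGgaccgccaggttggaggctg
Ccn1 (chr2:237225777-237225822, minus strand): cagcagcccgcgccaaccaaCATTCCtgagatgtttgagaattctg
Ccn2 (chr1:22624755-22624800, minus strand): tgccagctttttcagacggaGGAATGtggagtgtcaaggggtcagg
Ccn2 (chr1:22624681-22624735, minus strand): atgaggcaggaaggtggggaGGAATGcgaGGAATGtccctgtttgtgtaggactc
Acta2 (chr1:241172674-241172719, minus strand): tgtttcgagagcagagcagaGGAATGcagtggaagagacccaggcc
Vcl (chr15:3404942-3404987, minus strand): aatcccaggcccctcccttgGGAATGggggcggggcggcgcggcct
Cald1 (chr4:64233041-64233086, plus strand): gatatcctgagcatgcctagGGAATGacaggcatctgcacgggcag
The 2 Ccn2 windows hold 3 copies of GGAATG between 166 and 87 bases before the start, and the Ccn1 window holds its complement 113 bases before.

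The elements were counted in every gene with a promoter in the table. The TEAD element lay upstream of 23 of 110 higher genes (20.9%), 5 of 28 lower genes (17.9%) and 810 of 7894 tested genes (10.3%), and of 12.9% of all 27457 genes with a promoter. Among actin and contractile genes it lay in 5 of 14 called genes (35.7%) and in 4 of 10 that were not called (40.0%). Among YAP and TEAD targets it lay in 2 of 4 called genes (50.0%) and in 5 of 11 tested genes (45.5%). The CArG box lay in 2 of 110 higher genes, Cnn2 and Lima1 (1.82%), in 0 of 28 lower genes and in 1.36% of tested genes. For comparison, the AP-1 element TGANTCA lay in 5 higher (4.55%) and 3 lower genes (10.7%) against 4.52% of tested genes. A match describes these letters in this window and not binding, and elements outside the window were not counted.

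S100 proteins and annexins are calcium-binding proteins that sit at membranes and the cortex. Their list, which also holds other genes such as Cd9 and Lgals1, gave 6 higher and no lower genes of 21 (median 0.18). S100a6 read 2429.6, 845 and 1636 without peptide and 13617, 3157 and 4047 with ET-2. Each ET-2 array exceeded every untreated array, and the change was 1.90 ± 0.18 (3.73-fold, adjusted p = 0.000578). S100a4 (0.88), Anxa1 (0.77), S100a11 (0.65), the tetraspanin Cd9 (0.62) and the galectin Lgals1 (0.44) rose as well. Without replicate 1, S100a6 alone of the 6 was called.

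The largest increases of all were in Il1rl1 and Esm1. Il1rl1, the receptor of interleukin-33, read 656, 246 and 199 without peptide and 12271, 916 and 1579.6 with ET-2. The lowest ET-2 array exceeded the highest untreated one, and the rise was largest in replicate 1 (3.04 ± 0.31, 8.2-fold). Esm1 (endocan), a proteoglycan known from endothelial cells, read 381, 102 and 247 without peptide and 5339, 706 and 1288 with ET-2 and changed by 2.99 ± 0.24 (7.97-fold). The endothelial genes Pecam1, Tie1, Cldn5 and Vwf lay below the filter on average, as did Flt1, Egfl7, Tek, Sox17 and Emcn. The low signals of Flt1, Egfl7, Tek, Cldn5 and Sox17 were higher with ET-2 in all 3 pairs. Probe sets below the filter tended to be higher with ET-2 (median differences of 0.10 to 0.39, by signal level). Such rises are therefore not particular to these genes. Emcn, and Plvap, which passed the filter, were lower with ET-2 in all 3 pairs. Kdr, the main receptor of vascular endothelial growth factor, read 288, 513 and 546 without peptide and 187, 272 and 337 with ET-2 and fell by 0.74 ± 0.17. Summed endothelial markers, Kdr among them, were 977, 1072 and 1261 without peptide and 725, 900.2 and 1168 with ET-2, with overlapping ranges.

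**Figure D3:**
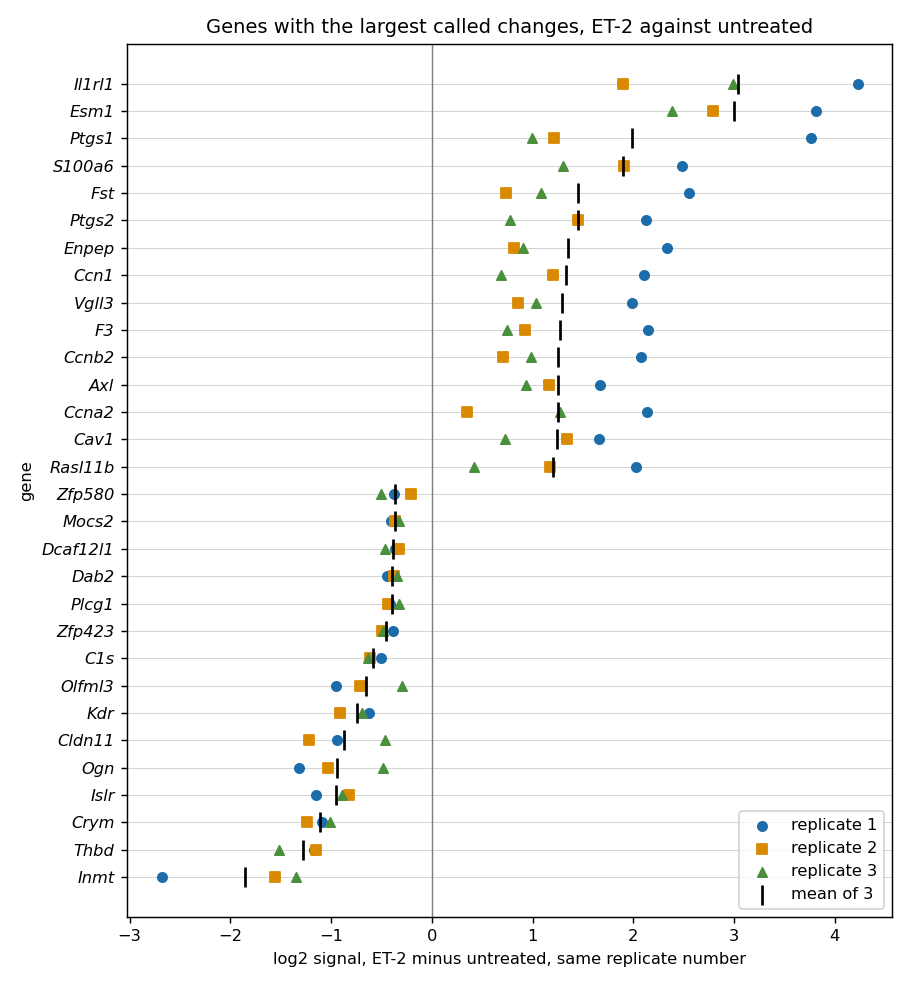
Log2 difference between the ET-2 and the untreated array of each replicate number (points) and the mean of the 3 (bars) for the 15 largest increases and 15 largest decreases among called genes. Il1rl1 (3.04) and Esm1 (2.99) stand apart among the increases and Inmt (-1.86) among the decreases; replicate 1 lies to the right for most increases.

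Of 21 cytokine, chemokine and receptor genes, 5 rose and none fell (median 0.42). Beside Il1rl1 these were the monocyte chemokines Ccl2 and Ccl7, the interleukin-1 receptor Il1r1 and the adhesion molecule Icam1. Ccl2 read 4299, 1533 and 2216 without peptide and 13759, 3623 and 3009.5 with ET-2, a change of 1.12 ± 0.20, and Ccl7 changed by 1.11 ± 0.17. Il1r1 (0.72) and Icam1 (0.69) had their highest signals in replicate 1. Without replicate 1, and likewise without replicate 2, Il1rl1 alone of the 5 was called. Summed microglia and macrophage markers read 5852, 7793 and 6097 without peptide and 4791, 7825 and 5098 with ET-2. Their lowest p went to Fcer1g, a receptor subunit of myeloid cells (-0.33 ± 0.11, adjusted p = 0.154; called after centring). In the NF-kB list, which holds regulators of this inflammatory transcription factor, 1 of 14 rose (Tnfaip2, 0.68 ± 0.13, below the filter without peptide) and 1 fell (Birc2, -0.36 ± 0.08). Of all tested genes 1.49% rose and 0.382% fell, and Tnfaip2 was tested only through the peptide arrays.

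Both cyclooxygenase genes, which make the prostaglandin precursor, rose among 9 prostanoid genes. Ptgs1 read 116, 209 and 190.1 without peptide and 1577, 484 and 379 with ET-2. The increase in replicate 1 was far larger than in the other 2, and the mean carries a wide error (1.99 ± 0.42, adjusted p = 0.038). Ptgs2, the inducible form, read 878, 287 and 333 without peptide and 3834, 783 and 570.4 with ET-2 and changed by 1.45 ± 0.23. Without replicate 1 the values were 1.11 for each gene, and of them Ptgs1 was called.

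Coagulation genes moved both ways, 3 higher and 1 lower of 11. F3 (tissue factor), which starts coagulation, read 627, 211 and 324 without peptide and 2770.4, 401 and 544 with ET-2 and rose by 1.27 ± 0.22. Plau (urokinase), a plasminogen activator, read 339, 197 and 476 without peptide and 517, 528 and 982 with ET-2, with its largest rises in replicates 2 and 3 (1.02 ± 0.20). Serpine2, an inhibitor of thrombin and urokinase, rose by 0.75 ± 0.17. Thbd (thrombomodulin), which turns thrombin towards protein C, read 835, 616 and 572 without peptide and 370.3, 278 and 200.0 with ET-2. All 3 ET-2 arrays lay below all 3 untreated ones, with differences of -1.17, -1.15 and -1.51 (-1.28 ± 0.12, 2.42-fold lower, adjusted p = 0.000578). Without replicate 1, Thbd was still lower and none of the other 3 was called.

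Among collagens and their modifying enzymes 5 of 26 rose and 1 fell (median 0.19), against 1.49% and 0.382% of all tested genes. The basement membrane collagens Col4a1 and Col4a2 rose by 0.73 ± 0.12 and 0.45 ± 0.10, the fibril-associated Col12a1 by 0.96 ± 0.11, Col5a2 by 0.46 ± 0.09 and the prolyl hydroxylase P4ha2 by 0.37 ± 0.08. Col12a1 read 1601, 239.7 and 159 without peptide and 3461, 469 and 274 with ET-2, so that replicate 1 dominated its level but not its change. Col3a1, a fibrillar collagen of fibroblasts, fell by 0.35 ± 0.07 (signals of 10636, 3668 and 1319 without peptide and 8914, 2816 and 996 with ET-2). After centring 3 collagen genes were higher, without Col4a2 and P4ha2, and without replicate 1 none was called. Second probe sets of Col4a1 and Col5a2 gave 0.64 (called) and 0.15 (not called, adjusted p = 0.677).

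In the fibroblast matrix list 3 of 19 genes fell and none rose, with a median of 0.13. After centring 2 were higher and 4 lower (median 0.036), against 1.38% and 6.86% of all tested genes. None was called without replicate 1 or without replicate 2. Ogn (osteoglycin), a small leucine-rich proteoglycan, read 6480.0, 1116 and 934 without peptide and 2603, 547 and 669 with ET-2. Each ET-2 array lay below its partner while replicate 1 stayed the highest in both groups (-0.94 ± 0.14). Islr, a mesenchymal surface protein, changed by -0.95 ± 0.16 and Olfml3, a secreted matrix protein, by -0.65 ± 0.14. The summed fibroblast markers, which hold Ogn, Islr and Col3a1, differed by 0.03 (log2, replicate 1), -0.33 (replicate 2) and -0.10 (replicate 3). Their part in these decreases was not tested.

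Transforming growth factor beta (TGF-beta) pathway genes gave 3 increases and no decrease of 28 (median 0.15), against 1.49% and 0.382% of all tested genes. Fst (follistatin), which binds and blocks activin, read 288, 119 and 117 without peptide and 1689, 198 and 248 with ET-2 and changed by 1.45 ± 0.29. Ltbp2, a matrix protein of the latent TGF-beta family, rose by 0.92 ± 0.11 and the ligand Tgfb3 by 0.85 ± 0.11 (signals of 369.5, 453 and 242 without peptide and 547, 908 and 474 with ET-2). Tgfb3 did not overlap between groups and, unlike most increases, changed least in replicate 1.

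Protease genes gave 3 increases of 23, against 1.49% of all tested genes. Enpep (aminopeptidase A), which cleaves angiotensin II, read 158, 79.8 and 39.2 without peptide and 795, 140.0 and 73.2 with ET-2 and rose by 1.35 ± 0.28. Its untreated mean lay below the filter, which it passed through the peptide arrays. Timp1, an inhibitor of matrix metalloproteinases, rose by 0.97 ± 0.17 and Adamts7, a matrix protease, by 0.93 ± 0.17. Of 20 integrin, laminin and cadherin genes the integrin beta chain Itgb1 (0.39 ± 0.08) and the laminin chain Lamb1 (0.33 ± 0.06) rose, and neither passed after centring (0.30 and 0.23). The gap junction gene Gja1 (connexin 43) read 4556, 617 and 1402 without peptide and 11276, 1106 and 2505 with ET-2 and rose by 0.996 ± 0.13, while Cldn11, a claudin of myelin, read 453, 371 and 296 without peptide and 237, 159 and 214 with ET-2 and changed by -0.87 ± 0.18; they were the 2 called of 10 junction genes.

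Of 31 cell cycle and DNA replication genes 5 rose and none fell, with a median of 0.45 and 26 positive values. Ccnb2 and Ccna2, mitotic and S-phase cyclins, rose by 1.26 ± 0.26 and 1.25 ± 0.27, the replication genes Tk1 and Mcm3 by 0.92 ± 0.15 and 0.82 ± 0.18, and the G1 cyclin Ccnd1 by 0.79 ± 0.17. Other tested probe sets of Ccnd1 (0.50 and 1.02) and Tk1 (0.73) were not called. Ccna2 read 233, 108 and 71 without peptide and 1020.5, 138 and 172 with ET-2. Ccna2, Mcm3 and Tk1 lay below the filter without peptide and were tested only through the peptide arrays, so they had to be higher there and the count of 5 is no measure of the list. Ganglion cells do not divide, and the list's medians were 0.74 in replicate 1, which held the most fibroblast transcripts, and 0.20 and 0.23 in replicates 2 and 3. Without replicate 1 none was called and the median was 0.16. Which cells carried these transcripts was not tested.

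The deepest decreases fell on 3 genes. Inmt, an N-methyltransferase of small amines, read 1269, 939 and 654 without peptide and 198, 319.9 and 258 with ET-2. The groups did not overlap, and the change was -1.86 ± 0.25 (3.63-fold lower, adjusted p = 0.00555). Crym (mu-crystallin), which binds thyroid hormone in the cytosol, read 1193, 2219.8 and 2036 without peptide and 561, 939 and 1012 with ET-2 with pair differences of -1.09, -1.24 and -1.01 (-1.11 ± 0.11, 2.16-fold lower). Of 5 thyroid hormone genes Crym alone was called. Thbd, above, was the other.

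The other decreases among the 15 largest were smaller. They included C1s, a complement protease (-0.58 ± 0.12), the transcription factor Zfp423 (-0.45 ± 0.09), Plcg1, a phospholipase C (-0.39 ± 0.06), the endocytic adaptor Dab2 (-0.39 ± 0.09), Dcaf12l1 (-0.39 ± 0.08), Mocs2, of molybdenum cofactor synthesis (-0.37 ± 0.07), and Zfp580 (-0.36 ± 0.07). Plcg1 was the only called gene of 21 in the Gq, calcineurin and RGS list, and the list's median was -0.10. After centring 6 of the 21 were lower (median -0.19), against 6.86% of all tested genes (median -0.12). Of the increases not yet named, Cav1 (caveolin-1), the coat protein of caveolae, read 815, 559 and 723 without peptide and 2573, 1419 and 1196 with ET-2 without overlap (1.24 ± 0.19), and a second Cav1 probe set was called too. Rasl11b, a Ras-like GTPase, read 316, 214 and 144 without peptide and 1289.8, 479.9 and 192 with ET-2 (1.20 ± 0.25).

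Single genes rose in 3 further lists. Dusp1, the phosphatase that turns off MAP kinases, rose by 0.27 ± 0.06 and was the only one of 14 MAP kinase feedback genes called; after centring it missed the threshold (0.18, adjusted p = 0.134). Nqo1, a quinone reductase, rose by 0.61 ± 0.14 among 24 antioxidant genes and missed after centring. Fgfr2, a fibroblast growth factor receptor, rose by 0.81 ± 0.14 among 15 neurotrophic factor genes.

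Of the endothelin system itself, 3 genes could be tested and none was called. The endothelin-converting enzyme genes Ece1 and Ece2 and their relative Ecel1 had changes of 0.08 ± 0.08, 0.03 ± 0.17 and -0.11 ± 0.07, with adjusted p of 0.496 to 0.948, and the first 2 changed sign after centring (-0.016 and -0.063). Edn1, which encodes ET-1, lay below the filter and was not tested. It read 59.4, 65.2 and 108 without peptide and 96.1, 102 and 117 with ET-2, and each ET-2 array exceeded its partner. Probe sets below the filter tended to be higher with ET-2 (median differences of 0.10 to 0.39, by signal level), so this direction is not particular to Edn1. Edn2, which encodes ET-2, read 2.76 to 20.4 on the 6 arrays. The receptor genes Ednra and Ednrb were not analysed here.

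Several lists had no called gene before centring. Among 21 immediate early genes, which answer a stimulus within the first hours, Nr4a1 (1.18 ± 0.30) and Egr1 (0.67 ± 0.17) came nearest, both at an adjusted p of 0.0789. Among 16 interferon genes Gbp2 read 337, 172 and 350.4 without peptide and 393, 809 and 1017 with ET-2 (1.33 ± 0.36, adjusted p = 0.0956), with little difference in replicate 1. It passed after centring (1.23, adjusted p = 0.0483), and without replicate 1 its change was 1.89 (adjusted p = 0.00243). Adm (adrenomedullin), of 13 vasoactive peptide genes, read 2243, 627 and 697 without peptide and 5628, 618 and 1128 with ET-2, with no rise in replicate 2 (0.67 ± 0.17, adjusted p = 0.08). Of 11 Wnt genes the secreted antagonists Sfrp2 (-0.61 ± 0.15) and Sfrp1 (0.73 ± 0.22) had values of opposite sign, and Sfrp2 was called lower after centring (-0.70, adjusted p = 0.0286). Of 14 EGF, PDGF and insulin-like growth factor genes, Hbegf, a ligand of the EGF receptor, had a value of 0.43 ± 0.15 (adjusted p = 0.179).

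Neuronal lists had no called gene before centring and medians near 0. The median was -0.01 over 28 axon cytoskeleton and growth genes, with Dcx at -0.24 ± 0.08 and Klf7 at -0.19 ± 0.08, and -0.08 over 32 semaphorin, ephrin, netrin and slit genes, with Epha2 at 0.60 ± 0.15 and Ephb3 at -0.38 ± 0.14. Centring gave all tested genes a median of -0.12, with 1.38% of them higher and 6.86% lower. The semaphorin list then had a median of -0.18, with 1 gene higher (Epha2, 0.50, adjusted p = 0.046). In that list 3 were lower, Ephb3 among them (-0.48, adjusted p = 0.0468). The axon list then had a median of -0.11 with 2 lower, near the values of all tested genes. Over 23 BCL2 and cell death genes the median was -0.05, and -0.15 with 4 lower after centring. There Bcl2l11, the pro-death BIM, read 1599, 1866 and 992 without peptide and 1311, 1581 and 882 with ET-2 (-0.23 ± 0.06, adjusted p = 0.0917), and Gadd45a had a value of -0.19 ± 0.06. The ganglion cell markers had a median of -0.01; Eomes, a transcription factor of some ganglion cell types, had a value of -0.27 ± 0.09 (adjusted p = 0.152) and Rbpms, a general ganglion cell marker, -0.13 ± 0.06. A p above the threshold does not show that these genes did not change.

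**Figure D4:**
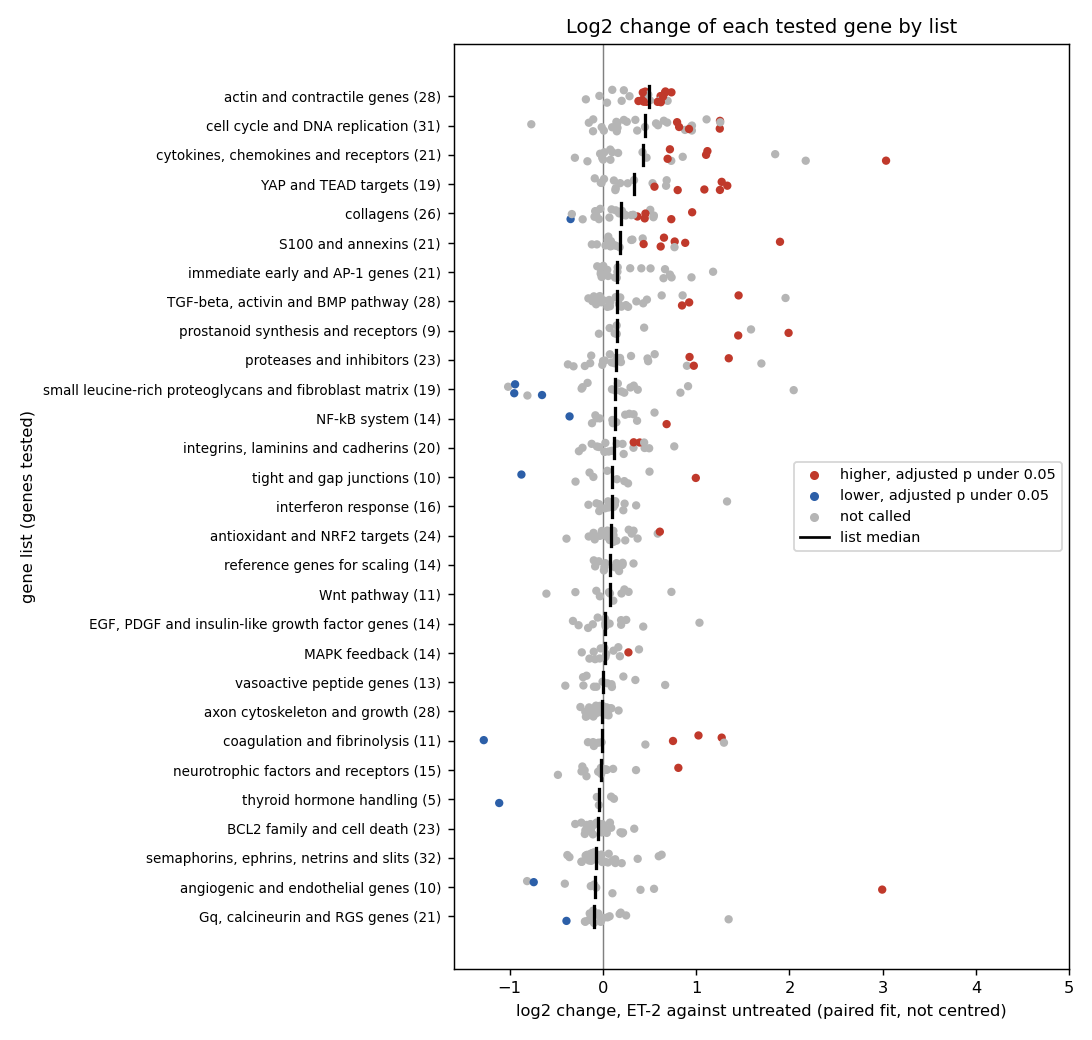
Log2 change of each tested gene in the functional gene lists with at least 5 tested genes (points; red and blue mark called genes) and the list's median (black bar), with the number of genes tested in brackets. Actin and contractile genes have the highest median (0.49) and the most called genes (17), and the axon, semaphorin and cell death medians lie near 0 (-0.01, -0.08 and -0.05) without centring.

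The choice of centring changed the decreases far more than the increases. The median of an ET-2 array exceeded that of its untreated partner by 0.0004 (replicate 1), 0.14 (replicate 2) and 0.15 (replicate 3), in log2 units. The shift was not the same at all signal levels. The probe sets were put in 10 bins of rising signal, and each probe set's 3 pair differences were averaged. The median of these averages was 0.39 in the lowest bin, 0.10 in the fifth, 0.03 in the sixth and -0.03 in the highest. Over the tested probe sets, the brighter ones, the arrays' medians differed by -0.03, 0.01 and 0.001. Centring each array on the median of all its probe sets therefore lowered the tested genes, from a median change of -0.02 to -0.12.

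**Figure D5:**
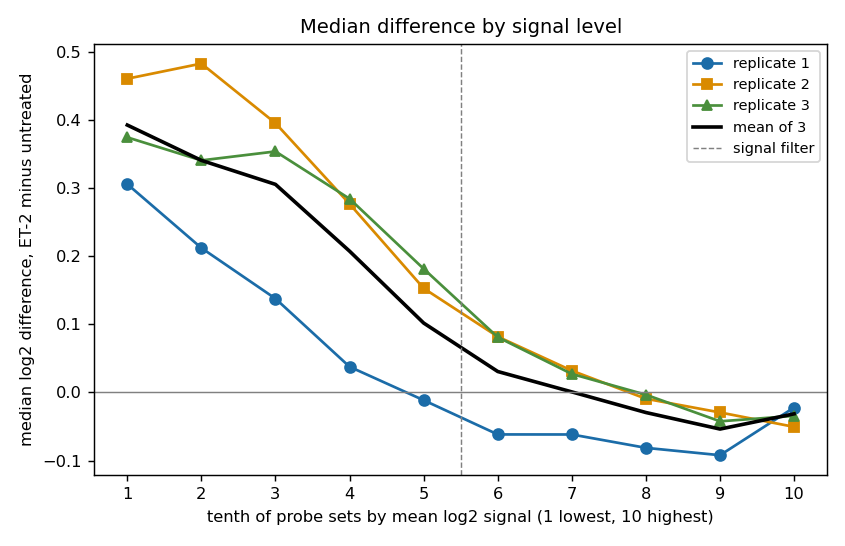
Median log2 difference, ET-2 minus untreated, in 10 equal bins of all 31042 probe sets ordered by mean log2 signal. Coloured lines show each replicate number, and the black line shows the median of each probe set's mean over the 3 pairs. The black line falls from 0.39 in the lowest bin to -0.05 in the ninth and reaches 0.001 in the seventh. Probe sets to the right of the dashed line were tested.

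After centring 193 probe sets were higher (1.24%) and 1025 lower (6.6%), so that the lower calls outnumbered the higher ones. The 50 lower probe sets were all among the 1025, and 170 of the 199 higher ones were among the 193. By gene, 130 were higher (1.38%) and 647 lower (6.86%), with 116 of the 140 and 36 of the 36 called both ways. The 975 probe sets that were lower after centring alone had a median change of -0.21 before it. Without replicate 2 the centred counts were 1 higher and 0 lower, and without replicate 3 they were 66 and 11. Eomes, Bcl2l11, Gadd45a and Dcx passed as lower after centring, at -0.37, -0.33, -0.29 and -0.34. Reference genes chosen for scaling, 14 housekeeping genes with none called either way, had a median of 0.08 before and -0.02 after centring. Before it Eef1a1, a translation factor, stood at 0.21 ± 0.05 and Pgk1, of glycolysis, at 0.21 ± 0.05.

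ET-2 was set directly against the other peptides at the same dose and time, in 2 pairs and against their mean. No probe set differed from the mean of ET-1 and ET-3 (0 of 15521 called, 0% of probe sets; limma, lowest adjusted p = 0.973; 682 at an unadjusted p under 0.05, where 776 would be 5% of those tested), from ET-1 (574 unadjusted) or from ET-3 (583 unadjusted). Without the pairing the unadjusted counts were 42, 41 and 46, with 0 calls each. The standard error of a probe set's difference between 2 peptides had a median of 0.11, so small differences could not be seen.

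The intervals of single genes show what remains possible. Il1rl1 differed by -0.41 from ET-1 (95% interval -1.08 to 0.25) and by -0.03 from ET-3 (-0.69 to 0.64). Vim differed by -0.07 (-0.19 to 0.06) and -0.08 (-0.21 to 0.05). For Thbd the differences were -0.01 (-0.27 to 0.25) and -0.28 (-0.54 to -0.02), and for Crym -0.01 (-0.25 to 0.22) and -0.27 (-0.50 to -0.03); neither passed after adjustment. The lowest unadjusted p against the mean went to Ankrd6 (0.47 ± 0.10), Gpx3 (0.44 ± 0.10) and Zfp358 (0.43 ± 0.10) as higher with ET-2 and Rab3gap1 (-0.24 ± 0.06), Lcp1 (-0.37 ± 0.09) and Tdg (-0.21 ± 0.06) as lower, all at an adjusted p of 0.973.

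Against the same 3 untreated arrays, which the comparisons share, the peptides gave these values side by side. The actin and contractile list had a median of 0.49 with ET-2, 0.55 with ET-1 and 0.61 with ET-3, and the YAP and TEAD list 0.33, 0.49 and 0.51. S100a6 changed by 1.90, 2.08 and 1.98, Ccn2 by 0.80, 0.81 and 0.87, and Inmt by -1.86, -1.69 and -1.84.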

How the data were processed

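RNA was measured on Affymetrix Rat Genome 230 2.0 arrays. The authors' deposited values are intensities on a linear scale, computed with MAS5 per the submitters' processing notes. Its version and options are not given in the sources used. Trimmed means of 496.7 to 498.3 on the 12 arrays show a common scaling; array medians ran from 136 to 181. Detection calls were not used.

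Of 31042 probe sets, 20826 had 1 symbol in the platform annotation, 436 several and 9780 none; only the first were named, and 20758 matched RefSeq by Entrez ID. Intensities were taken as log2 with no pseudocount. Probe sets at or above the median of mean log2 signal were tested with limma 3.58.1 in R 4.3.3: 4 group means over all 12 arrays, the replicate number as a block, eBayes with an intensity trend, two-sided p, Benjamini-Hochberg. All 18 pairs of arrays with one number correlated (r from 0.684 to 0.912; 0.1 was the minimum for pairing), which rests on the values, not the labels. Median residual SD was 0.127 with the block and 0.25 without.

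Named genes were the 15 largest called changes each way, up to 6 called members of each list by smallest p (up to 2 where none was called), and the endothelin system; a few others were added after their values were seen, as stated. The comparison, lists and rule were chosen with earlier results of these data known. The code was tested on simulated data. Promoters are RefSeq's for GRCr8. The number of arrays limits the precision.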

Additional observations from a re-analysis of the deposited data

How the results depend on the processing

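The counts of higher and lower probe sets (199 and 50) depended on the design. The fit with no replicate block (unpaired) gave 0 and 0, and also 0 and 0 after centring. ET-2 and untreated arrays alone with the block gave 50 and 6 (centred, 7 and 5), no signal filter 114 and 21, an upper-quartile filter 114 and 45, eBayes with no trend 62 and 9, single-symbol probe sets with no filter 74 and 16 (chosen after seeing the data), and centring 1025 lower. Leaving out replicates or single arrays gave 23 to 335 higher and 3 to 69 lower (23 and 4 without the ET-2 array of replicate 1, 335 and 69 without the untreated array of replicate 3), and after centring 1 to 66 and 0 to 484. Without replicates 1, 2 and 3 the counts were 27 and 5, 41 and 3, and 132 and 11. Quantile normalization (161 and 35), 16 added to the signal (187 and 50) and centring on the tested probe sets (194 and 42, chosen after seeing the data) moved them less. The 0 calls between peptides held under the 8 alternatives run. Of the 109 called genes named, none changed sign in any setting where it was tested, and 10 stayed called in every setting other than the unpaired fit that tested them (18, and 17 for Thbd): Axl, Ccn2, Crym, Esm1, Il1rl1, Myl12a, Myof, S100a6, Thbd and Vim. Leaving out a whole replicate could not turn the sign of these genes, because every called gene moved one way in all 3 pairs. Called genes lost with the unpaired fit were all 109. Values that changed sign were Ece1 after centring (-0.016) and Ece2 after centring (-0.063), with quantile normalization (-0.034) and with replicates or arrays left out (-0.11 without replicate 2 to 0.15 without replicate 1, where it kept its sign). These fits with an array left out rest on fewer arrays; the cause of the other shifts was not tested.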

Other observations

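Called genes outside the lists, picked here after their values were seen, are given as single genes, with no test of a theme. Cavin3, a caveolar protein, read 1528, 1097 and 1156 without peptide and 2162, 1767 and 1568 with ET-2 (0.54 ± 0.08). Ehd2, a membrane ATPase, changed by 0.84 ± 0.18 and was called in 4 of 17 other settings, the unpaired fit left aside. Such low counts were not particular to Ehd2. Kdr, Mcm3 and Spc24 were also called in 4 of 17, Spast in 4 of 18, and Runx1 and Brsk1 in 3 of 18. The focal adhesion and actin-linked genes Bcar1 (p130Cas), Lims1 (PINCH), Csrp1, Iqgap1 and Msn (moesin) rose by 0.55, 0.43, 0.54, 0.58 and 0.34. Piezo1, a stretch-activated ion channel, read 363, 182 and 208 without peptide and 581, 338 and 279 with ET-2 (0.67 ± 0.12, adjusted p = 0.0188). Jph2 (junctophilin 2) and Lmcd1, both known from muscle, rose by 1.12 ± 0.22 and 1.15 ± 0.23. Ehd2, Lmcd1, Sphk1, Tnfrsf11b and, below, Uhrf1 had untreated means below the filter and were tested only through the peptide arrays. Sphk1, which makes sphingosine 1-phosphate, Tnfrsf11b (osteoprotegerin) and Cryab (alpha B-crystallin) rose by 1.08, 1.09 and 0.93; Cryab was highest in replicate 3 (244, 559 and 1537 without peptide and 461, 1318 and 2389 with ET-2).

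Single genes with small decreases included Bsn (bassoon), a presynaptic scaffold, which read 2743, 3097 and 2875 without peptide and 1988, 2569.6 and 2434 with ET-2, with no overlap (-0.32 ± 0.06, adjusted p = 0.0229). Ank3 (ankyrin-G), which organises the axon initial segment, changed by -0.36 ± 0.07, and the transporters Slc6a17 and Slc6a15 by -0.33 ± 0.07 and -0.28 ± 0.06. Brsk1, a kinase of neuronal polarity, and Spast (spastin), which severs microtubules, changed by -0.25 and -0.25. Second tested probe sets of Ank3, Slc6a17 and Spast were not called, at -0.08 (adjusted p = 0.847), -0.07 (adjusted p = 0.729) and -0.10 (adjusted p = 0.456). These were named after their values were seen, and the axon (28 genes) and ganglion cell marker (18 genes) lists had none called.

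Outside the cell cycle list, the kinetochore genes Nuf2 and Spc24 rose by 1.12 ± 0.24 and 1.04 ± 0.23 and the chromatin gene Uhrf1 by 0.82 ± 0.16. Nuf2 read 213, 180.3 and 116 without peptide and 792, 254 and 225 with ET-2, and Uhrf1 291, 74.7 and 81.8 without peptide and 565, 132 and 131 with ET-2. The transcription factors Runx1 and Epas1 rose by 0.60 ± 0.14 and 0.59 ± 0.12, the cortisol-regenerating enzyme Hsd11b1 by 1.10 ± 0.24, the TGF-beta target Pmepa1 by 0.51 ± 0.09 and the mitochondrial protein Tspo by 0.85 ± 0.12. Runx1 and Msn missed the threshold after centring. A second Runx1 probe set gave 0.31 and was not called (adjusted p = 0.645).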
